A study of Mus musculus with 4 samples.

Results

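B cells of the lung that carried no transcript of IgD or CD23 were a small group, called IgD-CD23- B cells here. They yielded more transcripts per cell than the IgD-positive B cells of the same libraries. They were high in S100a6, Plac8, Zbtb32, Cd80 and Itgb1 and low in Satb1 and Vpreb3. Among cells with 3000 to 8000 UMIs Satb1 was less than 2-fold lower in members in every library, and in the KO libraries it was close to the IgD-positive level. The IgD-CD23- B cells made up 329 of 27544 cells kept (1.19%) and 4.90% of the 6712 B cells. A barcode belonged to them when it had more than 200 detected genes, under 15% mitochondrial unique molecular identifiers (UMIs, each marking 1 captured RNA molecule), at least 2 UMIs of Cd79a, at least 1 of Ms4a1, and none of Ighd, Fcer2a, Cd3e, Cd3d or Marco. Cd79a encodes a signalling chain of the B cell receptor and Ms4a1 encodes CD20. Ighd, the constant region of IgD, lies on chromosome 12 from 113406604 to 113416324 on the minus strand of GRCm38, next to Ighm at 113418558 to 113422730. Fcer2a, which encodes the low-affinity IgE receptor CD23, lies on chromosome 8 from 3681737 to 3694175. Cd3e and Cd3d mark T cells and Marco marks alveolar macrophages. The same gate with at least 1 Ighd UMI, whatever Fcer2a, gave 6120 IgD-positive B cells, and the remaining 263 B cells had Fcer2a but no Ighd. The members were chosen by the measured UMIs of Cd79a, Ms4a1, Ighd, Fcer2a, Cd3e, Cd3d and Marco in these libraries, so every difference between them and the IgD-positive B cells is a description and carries no test.

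The cells came from lungs of C57BL/6 mice in which Ift20, a gene of intraflagellar transport, is flanked by loxP sites. Animals without Cre (Ift20 f/f) are called WT here and those with Cre under the CD4 promoter (Ift20 f/f CD4 cre) are called KO, so all 4 groups carried the floxed allele. CD4 cre acts in developing T cells, not in B cells, and the B cells of the KO libraries are therefore B cells of animals in which Ift20 was targeted in T cells. Papain, a protease allergen, was given into the nose at 25 µg on 3 consecutive days and again on day 14, controls received DPBS, and 7-AAD-negative CD45.2-positive lung cells were sorted on day 15. Each combination of treatment and genotype gave a single 10x Genomics 3′ v3 library, and lists of 4 values below run from DPBS WT and DPBS KO to Papain WT and Papain KO. The study's methods state male mice aged 5 to 10 weeks for all its experiments. How many mice entered a library is not given in the sources used here. With 1 library per group nothing between groups could be tested, and all intervals below are exact 95% intervals that cover counting error only. In bulk sums over a class, fewer cells that express a gene and less RNA per cell cannot be told apart.

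Naive recirculating B cells carry IgM and IgD together, which are spliced from a common transcript, and most of them also carry CD23. IgD is lost or lowered in several B cell states, among them marginal zone B cells, B-1 cells, germinal centre cells, plasmablasts and memory cells. After class switching the Ighm and Ighd exons are deleted and IgG, IgA or IgE is made. Memory B cells and B cells of the lung mucosa are known for integrins and surface molecules that the naive cells lack, such as CD80 and CD73.

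The libraries held 53854420 to 75675956 UMIs over 5863 to 8552 barcodes, of which 5702 to 8144 were kept. No member shared its barcode with a member of another library, although 27 to 39 barcodes per library occurred in another one. In the KO libraries Ift20 was lower in T cells (21.6 CPM in DPBS KO and 19.4 in Papain KO against 57.0 and 58.2 in the WT libraries, where CPM is UMIs per 1000000 UMIs), which follows the labels. The label of the members as B cells was checked with 8 B lineage genes that the rule did not use. All 8, among them Cd79b, Cd22 and Pax5, had UMIs in members of each library. After every cell had been thinned to 2000 UMIs, Cd79b was found in 67.5% to 90% of members and 80.8% to 89.6% of IgD-positive B cells but in 0.908% to 2.27% of T cells. All 8 genes were nevertheless lower in members than in IgD-positive B cells in each of the 4 libraries, with a median log2 ratio of -0.33, and Ebf1 and Pax5, transcription factors of B cell identity, had medians of -1.07 and -0.93.

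Members were deeper than IgD-positive B cells. Their median was 6523.5 UMIs against 3982 in DPBS WT, 4927 against 4286.5 in DPBS KO, 12750.5 against 4454 in Papain WT and 8583 against 4910 in Papain KO. The ratio of medians was 1.64 (1.12 to 2.51), 1.15 (0.988 to 2.18), 2.86 (2.17 to 3.24) and 1.75 (1.13 to 2.39) in that order, so it lay above 1 beyond counting error in all libraries except DPBS KO. The median number of detected genes was 2047.5 against 1449, 1801 against 1530, 2885.5 against 1613 and 2386 against 1664.5. When the B cells of a library were divided by depth into 4 bins of equal size, the deepest bin held members at 6.19%, 6.23%, 25.1% and 9.90%, and no other bin of any library exceeded 4.81%. Of the 329 members 44 had fewer than 4000 UMIs. The part of missed Ighd transcripts in the membership was not tested. Among B cells with at least 4000 UMIs the median Ighd count was 4, and in Papain WT those with 0 UMIs (204) outnumbered those with 1 UMI (131), whereas in the other libraries they did not (72 against 103, 62 against 82 and 108 against 126).

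**Figure D1:**
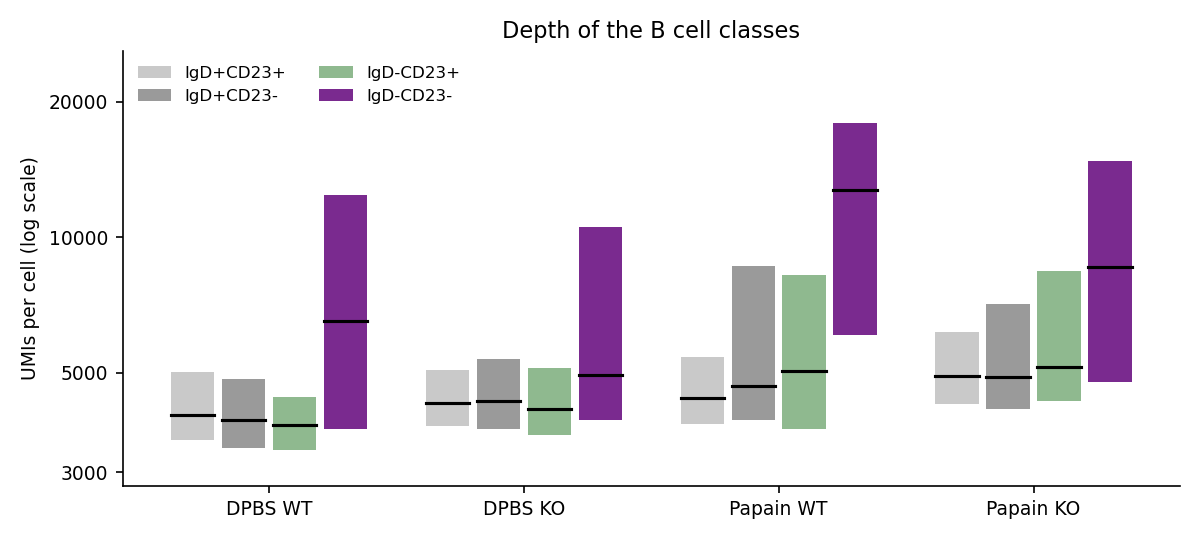
UMIs per cell (log axis) of the B cell classes in each library, split by Ighd and Fcer2a transcripts. Boxes span the 25th to 75th percentile and black lines mark medians. The IgD-CD23- median is highest in Papain WT, at 12750.5 UMIs.

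The members took the largest share of cells in the papain-treated WT library. They were 52 of 8144 cells in DPBS WT (0.639%, 0.477 to 0.836), 40 of 5704 in DPBS KO (0.701%, 0.501 to 0.954), 168 of 7994 in Papain WT (2.10%, 1.80 to 2.44) and 69 of 5702 in Papain KO (1.21%, 0.943 to 1.53). As a share of B cells they were 2.59% (1.94 to 3.39), 3.28% (2.35 to 4.44), 8.78% (7.55 to 10.1) and 4.38% (3.42 to 5.51). Papain WT lay above the other 3 libraries on both denominators, and the intervals of the DPBS libraries overlapped each other. The log2 ratio of the share of cells between papain and DPBS was 1.72 in WT (1.26 to 2.20) and 0.79 in KO (0.20 to 1.39). For KO over WT it was 0.14 (-0.50 to 0.76) after DPBS and -0.80 (-1.22 to -0.38) after papain. Of B cells the last ratio was -1.003 (-1.43 to -0.59), and the papain ratio in KO was 0.42 (-0.16 to 1.02).

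The gap between Papain KO and Papain WT moved with other measurements. Barcodes with a UMI of Cd3g, Trac, Trbc2, Nkg7, Lyz2, C1qa or S100a8, genes of T cells, natural killer cells and myeloid cells, were 63.5% and 62.5% of members in the DPBS libraries, 66.1% in Papain WT and 42.0% in Papain KO, against 56.9%, 54.4%, 52.1% and 48.4% of IgD-positive B cells. Without those barcodes among the members the counts were 19, 15, 57 and 40, and the KO to WT log2 ratio after papain became -0.02 of cells and -0.23 of B cells, while papain against DPBS in KO became 1.42 and 1.05. Depth moved with it too. When all B cells were thinned to 2000 UMIs before Ighd and Fcer2a were read, 10.8%, 15.9%, 23.2% and 19.0% of B cells had neither, the KO to WT ratio after papain was -0.29 and the papain to DPBS ratio in WT was 1.10. The part of depth and of other-lineage UMIs in the share of members was not tested.

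**Figure D2:**
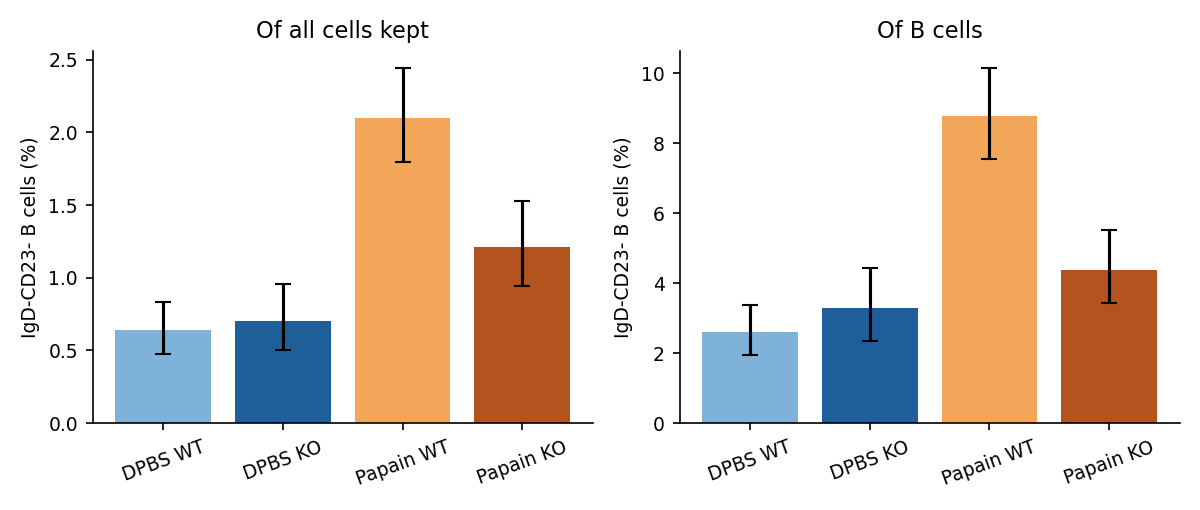
IgD-CD23- B cells as a percent of all cells kept (left) and of B cells (right) in each library, with bars from 0 and exact 95% intervals for counting error. Papain WT stands at 8.78% of B cells and the other libraries lie between 2.59% and 4.38%.

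Against IgD-positive B cells of the same library, 40 genes of 10294 measured were at least 2-fold higher in members of all 4 libraries (0.389%) and 73 were at least 2-fold lower (0.709%), and no immunoglobulin V segment was among them. Over the 8846 genes with enough UMIs the median log2 ratio was -0.16. Among the highest was S100a6, a calcium-binding protein of the S100 family. Its level was 1616 CPM in members against 231 in DPBS WT, 1635 against 224 in DPBS KO, 3159 against 743 in Papain WT and 1517 against 388 in Papain KO. The members lay above the IgD-positive B cells by log2 2.80 (2.69 to 2.92), 2.87 (2.72 to 3.01), 2.09 (2.04 to 2.13) and 1.97 (1.88 to 2.06). At 2000 UMIs per cell S100a6 was found in 54%, 37.5%, 67.7% and 49.3% of members, in 8.05%, 5.65%, 15.2% and 11.8% of IgD-positive B cells and in 10.3% to 25.9% of T cells. No single member held more than 13.8% of a library's S100a6 UMIs. Over B cells with Ighd and Fcer2a, with Ighd alone, with Fcer2a alone and with neither, S100a6 stood at 178, 488, 218 and 1616 CPM in DPBS WT and at 373, 1520.0, 1026 and 3159 CPM in Papain WT.

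Other genes were past 2-fold in all libraries as well. S100a4, a relative of S100a6, had a median log2 ratio of 1.97, and the LIM protein gene Crip1, the galectin gene Lgals1 and the scaffold gene Ahnak had medians of 1.29, 1.31 and 1.25. The highest genes by the ratio nearest 0 also held Cacna1s, a subunit of a voltage-gated calcium channel (41.8 against 3.76, 38.7 against 2.93, 54.6 against 10.6 and 64.1 against 7.86 CPM), Zcwpw1, a reader of histone methylation (median 2.22), Fgl2, a secreted fibrinogen-like protein (2.72), Plscr1, a phospholipid scramblase (2.19), and Ass1, the argininosuccinate synthase of arginine metabolism (2.03). Zcwpw1 had UMIs in only 9.62% of DPBS WT and 5% of DPBS KO members. Thinned to 2000 UMIs, it was found in 0%, 5%, 7.78% and 8.70% of members. In IgD-positive B cells the thinned shares were 1.40%, 1.16%, 2.24% and 1.45%. Fam46c, an RNA-modifying enzyme of antibody-secreting cells, had a median of 2.43, the amino acid transporter gene Slc7a7 2.26, the adenosine receptor gene Adora2a 2.17 and Prkar2b, a regulatory subunit of protein kinase A, 1.81. Ctla4, an inhibitory receptor better known from T cells, stood at 49.7, 35.7, 31.7 and 158 CPM in members and at 4.83 to 9.2 CPM in IgD-positive B cells. The values in members came from 25, 12, 75 and 148 UMIs in 10, 4, 30 and 13 cells. In DPBS WT 14 and in DPBS KO 7 of these UMIs lay in 1 cell. The 6 T cell markers summed to 16.1 to 31.8 CPM in members and 28.7 to 39.2 CPM in IgD-positive B cells, but both classes had been gated to hold no Cd3e or Cd3d UMI. The part of T cell RNA in the Ctla4 values was not tested.

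The genes at least 2-fold lower in all libraries were led by Car2, a carbonic anhydrase, at 2.11 to 5.95 CPM against 15.7 to 33.1, with few UMIs behind it. Tsc22d1, a transcriptional regulator, had a median log2 ratio of -2.10, Pxdc1 -2.42, the adaptor gene Grap2 -1.74 and Icosl, the ligand of the T cell costimulator ICOS, -1.94. Icosl was 27.9 against 89.2, 14.9 against 65.3, 14.4 against 62.1 and 18.2 against 62.1 CPM. Rflnb and the unnamed transcripts Gm15675 and Gm15991 completed the lowest 8. Satb1, a chromatin organiser, was 89.5 against 296, 175 against 469, 93.5 against 432 and 121 against 390.1 CPM. Zfp318, which is needed for the splicing of IgD, had a median of -2.20 and was lower in members in every library (27.9 against 129.9, 50.5 against 136, 19.9 against 134 and 29.9 against 135 CPM).

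**Figure D3:**
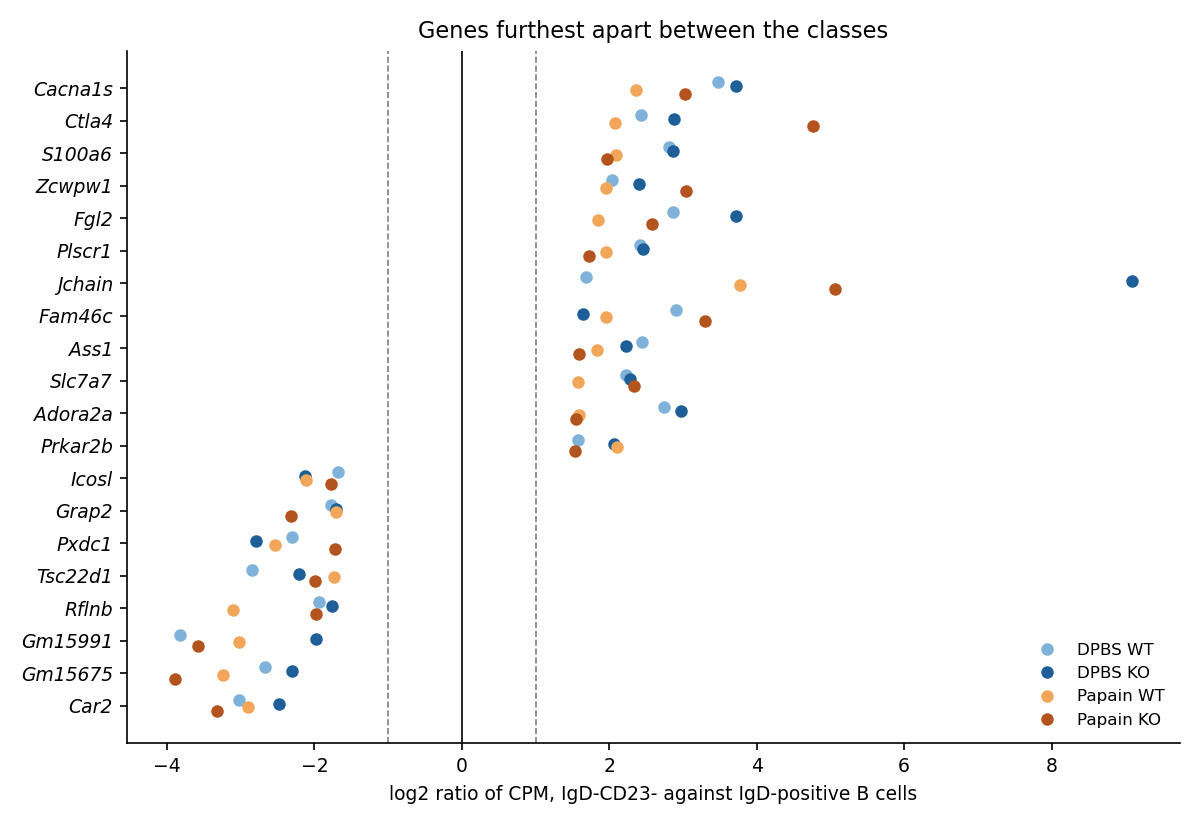
Log2 ratio of CPM of members to IgD-positive B cells for the 12 highest and 8 lowest genes, 1 point per library, with dashed lines at 2-fold. The points of Jchain spread widest (1.69 to 9.09), and those of S100a6 lie between 1.97 and 2.87.

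Genes of recirculating follicular B cells were mostly lower in members, and genes of B-1 and memory cells mostly higher. The counts of direction in these lists are to be read beside all 8846 genes, of which 907 (10.3%) were higher and 2363 (26.7%) lower in all 4 libraries. Of 10 follicular and recirculating genes measured, 7 were lower in members in all libraries, 1 was higher and 2 were lower by at least 2-fold (Satb1 and Bach2), with a list median of -0.95. Ccr7, a chemokine receptor for lymphoid tissue, had a median of -1.28 and the inhibitory receptor gene Fcrl1 -1.52, whereas Cxcr5, the receptor for follicles, was the list's higher gene (median 0.54, 0.25 to 0.70). Of 2 transitional genes measured, Vpreb3 was past 2-fold lower (55.7 against 192, 50.5 against 156, 35.1 against 144 and 41.7 against 158 CPM).

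The B-1 list had 5 of 6 measured genes higher in members in all 4 libraries and a median of 1.23. Of its 7 genes 1 had fewer than 20 UMIs in members, and Cd5, which is in the list, had none in DPBS KO members. Bhlhe41, a transcription factor of B-1a cells, was past 2-fold in each library (149 against 36.8, 68.4 against 30.2, 79.5 against 35.7 and 72.7 against 35.1 CPM). Zbtb32, a repressor found in B-1 and memory B cells, had a median of 2.69 (2.36 to 3.55) but too few UMIs in DPBS KO for the count of called genes. Its level was 79.6 against 6.79, 26.8 against 3.45, 109 against 20.4 and 50.2 against 9.79 CPM. Fcrl5 had a median of 1.66, and Ahr, the aryl hydrocarbon receptor, 0.91. In the marginal zone list 2 of 8 genes were higher and 2 lower in all libraries: Mzb1, an endoplasmic reticulum chaperone that plasma cells also make, was past 2-fold higher and Plac8 had a median of 1.24 (0.80 to 1.76), but Cr2, the complement receptor CD21 that marginal zone B cells carry at high level, was 33.8 against 95.9, 44.6 against 78.2, 16.9 against 90.5 and 15 against 89.6 CPM. At 2000 UMIs per cell Cr2 was found in 12%, 12.5%, 4.19% and 5.8% of members against 17.3%, 11.9%, 16.3% and 16.3% of IgD-positive B cells, so that in DPBS KO the share of members was not below that of IgD-positive B cells.

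Of 9 memory genes measured, 6 were higher in all libraries, 1 was lower, and Cd80 and Itgb1 were past 2-fold, with a list median of 0.79. Of the 10 genes in the list 1 had fewer than 20 UMIs in members, and Nt5e, the gene of CD73, had none in DPBS KO members. Cd80, a costimulatory ligand, was 35.8 against 6.79, 38.7 against 8.29, 46.9 against 11.3 and 21.4 against 8.18 CPM. Itgb1, the integrin beta-1 chain, was 189 against 51.7, 169 against 44.7, 189 against 66.8 and 109 against 51.7 CPM. Vim had a median of 0.79 and Cxcr3, a receptor for inflamed tissue, 2.90 on few UMIs. The age-associated list had 2 of 5 genes higher, and the germinal centre list had none of 6 that kept 1 direction in all libraries. All 9 class II antigen presentation genes were lower in members in each library, by a median of -0.52. H2-Aa stood at 4461 against 5537, 4023 against 5993, 3701 against 5103 and 3294 against 5223 CPM, and H2-Oa, which holds back peptide loading in B cells, was past 2-fold lower. Among B cell receptor signalling genes 6 of 11 were lower and 1 higher, with the inhibitory receptor gene Cd72 past 2-fold lower (median -1.77). Activation genes (1 of 10 higher and 3 lower) and heat shock genes (0 of 9 higher and 4 lower) had medians of -0.31 and -0.22, and their counts lay near the shares of all genes given above. The other lists were homing genes (4 of 11 higher, 4 lower, -0.20), cytokine and receptor genes (2 of 10 higher, 4 lower, -0.45) and interferon-stimulated genes (0 of 7 higher, 1 lower, -0.19). Of 4 constant genes each of the heavy and light chains, 3 and 2 were higher in all libraries.

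Both classes were also read in the same depth window, within which their depths still differed. Between 3000 and 8000 UMIs there were 133 members, and over 8000 UMIs there were 187. In the lower window the median was 4425.5 UMIs in members against 3948, 4062 against 4241, 5055 against 4268 and 4761 against 4668. In the upper it was 13007 against 12193, 11415 against 10801.5, 15897.5 against 12741 and 14783 against 11344. With the libraries summed, 39 of the 40 higher genes kept their direction at 3000 to 8000 UMIs and 33 stayed at least 2-fold higher, with a median of 1.95 beside 0.07 for all genes. Over 8000 UMIs all 40 kept it, 20 by at least 2-fold, with a median of 0.99 beside -0.26. The 73 lower genes behaved the other way. At 3000 to 8000 UMIs 66 kept the direction and 20 the fold (median -0.59), and over 8000 UMIs 73 kept the direction and 68 the fold (median -1.66). S100a6 was 217 against 47.7, 278 against 25.4, 1078 against 70.7 and 363 against 53.5 CPM in the lower window and 1979 against 750.0, 2185 against 915, 3441 against 1704 and 1774 against 932 CPM in the upper. Satb1 was 255 against 341, 505 against 525, 317 against 582 and 445 against 484 CPM in the lower window, where DPBS KO and Papain KO hardly differed between classes, and 39.4 against 172, 41.8 against 259, 63.4 against 218 and 48.4 against 231 CPM in the upper. With the rule applied in each library, including its minimum of 10 UMIs, 3 genes were higher and 3 lower in the lower window and 5 and 131 in the upper. The members themselves also differed by depth: those under 4000 UMIs had 263 CPM of S100a6 and 603 CPM of Satb1 with the libraries summed, and those with at least 4000 UMIs had 2557 and 87.9 CPM.

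**Figure D4:**
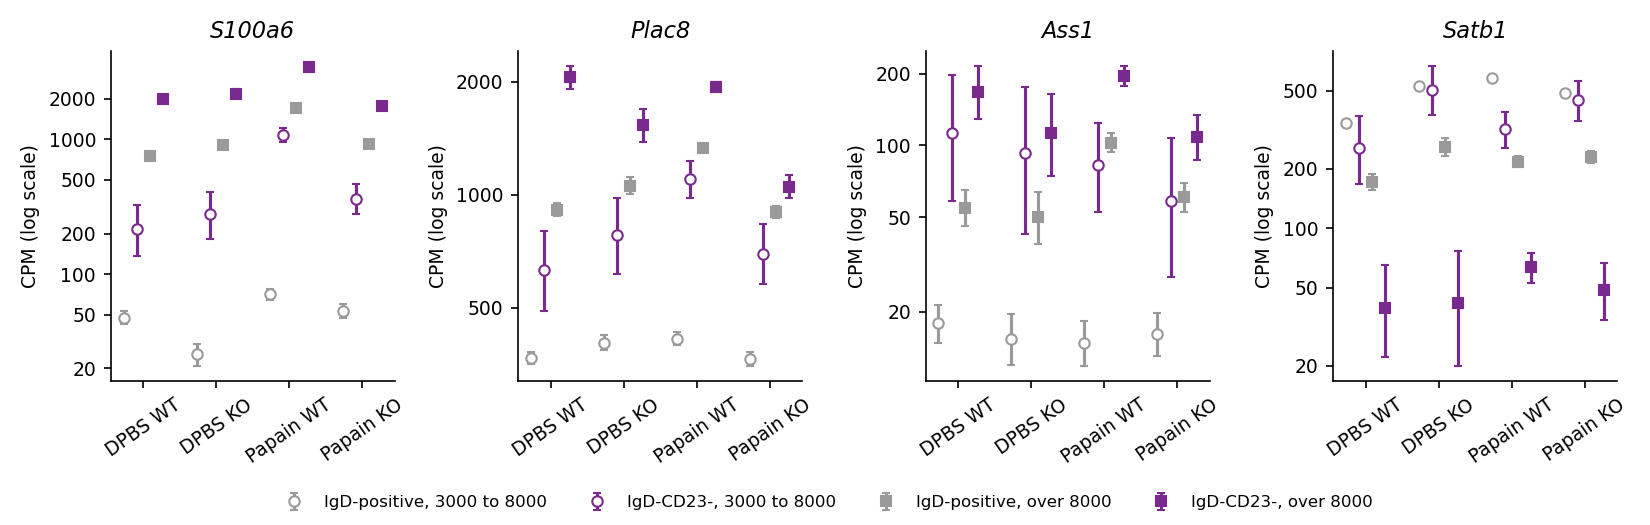
Level (CPM, log axis) of S100a6, Plac8, Ass1 and Satb1 in members and IgD-positive B cells of each library, in cells with 3000 to 8000 UMIs (open) and over 8000 UMIs (filled), with exact 95% counting intervals. S100a6 is higher in members in both windows of all 4 libraries, and Satb1 separates the classes mainly over 8000 UMIs.

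Most members still made IgM. With at least 3 UMIs required, 302 of 329 (91.8%) were unswitched, 22 (6.69%, 4.24 to 9.95) had more IgG, IgA and IgE than Ighm transcripts, and 5 had neither. By library the switched share was 3 of 52 (5.77%, 1.21 to 15.9), 0 of 40 (up to 8.81), 15 of 168 (8.93%, 5.08 to 14.3) and 4 of 69 (5.80%, 1.60 to 14.2), so the libraries overlapped. Among IgD-positive B cells 9 of 6120 were switched (0.147%, 0.0673 to 0.279), and no T cell met the rule. The isotype with most UMIs was Igha in 9 of the switched members, Ighg2b in 7, Ighg3 in 4, Ighg1 in 1 and Ighg2c in 1, and Ighe in none. The median Ighm count was 30.5, 15.5, 54 and 36 UMIs in members against 12, 12, 14 and 14 in IgD-positive B cells and 1 in T cells. As a share of a cell's UMIs it was 0.433%, 0.310%, 0.419% and 0.422% in members against 0.293%, 0.263%, 0.301% and 0.272%.

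A small number of members carried antibody-secretion transcripts in large amounts. The plasma cell list had 5 of 10 genes higher in all libraries, with Jchain, Xbp1 and Mzb1 past 2-fold and a median of 1.79. Jchain, which joins IgM and IgA into polymers, had UMIs in 3, 2, 19 and 7 members and at least 10 UMIs in 1, 1, 7 and 5, in all 14 members against 7 of the 6120 IgD-positive B cells. In DPBS WT 450 of 453 Jchain UMIs and in DPBS KO 252 of 253 lay in 1 cell. Xbp1, the transcription factor of the secretory pathway, was 328 against 65.1, 161 against 54.6, 121 against 57.3 and 303 against 65.5 CPM. Prdm1, which ends the B cell programme, had a median of 1.49 (0.84 to 2.67). Il10, an inhibitory cytokine, was 27.9 against 1.78, 8.92 against 1.55, 22.4 against 2.41 and 42.8 against 5.81 CPM, from 14, 3, 53 and 40 UMIs in 5, 3, 22 and 11 members. Of 8 cell cycle genes 3 were higher in all libraries. Mki67, a marker of dividing cells, had at least 2 UMIs in 12 members (1, 0, 9 and 2) and in 19 IgD-positive B cells.

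RNA of other cell types was present at levels that differed between libraries. The 4 monocyte markers summed to 4154, 4564, 1222 and 753 CPM in members against 2129, 1413, 1391 and 1466 CPM in IgD-positive B cells. The 6 macrophage markers summed to 261, 755, 1400.4 and 103 CPM against 1638, 919, 2378 and 829, with Plet1 and C1qa at 0 in DPBS WT members and Plet1, Lpl and C1qa at 0 in Papain KO members. The 4 neutrophil markers summed to 21.9, 122, 382 and 20.3 CPM, and the 4 natural killer markers to at most 4.23 CPM, all 4 being at 0 in DPBS KO. The 5 dendritic markers summed to 8.92 to 28.9 CPM and the 6 structural and red cell markers to 8.92 to 21.4 CPM, with Xcr1 and Siglech at 0 in members of every library, and Cldn5, Cdh5, Hbb-bs and Hba-a1 likewise. At least 10 UMIs over 13 myeloid genes were found in 8, 6, 20 and 5 members (39 in all, 11.9%), in 4.75% of IgD-positive B cells and in 8.30% to 15.8% of T cells. Scrublet marked 21 members as doublets (3, 3, 12 and 3). Without the myeloid-rich barcodes the 2-fold lower genes numbered 46. The part of these cells in the gene differences was not tested.

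Between libraries the sums over members were carried by unequal numbers of cells, and 1 cell could set a value. In Papain KO against Papain WT, 72 genes of 7681 were at least 2-fold higher (0.937%) and 830 lower (10.8%), about a median of all genes of -0.30 that was -0.05 with TMM factors and -0.08 with immunoglobulin genes left out of the totals. With these scalings 136 and 127 genes were higher, and 538 were lower with TMM. Immunoglobulin transcripts took 18.5% of the Papain KO members' UMIs against 5.31% in Papain WT. Only 33 of the higher and 79 of the lower genes had an interval wholly past 2-fold. In 18 of the higher and 35 of the lower genes more than 50% of the UMIs lay in 1 cell. When a gene also had to be found in at least 20% of the members of the higher library and to keep its sign beyond counting error without the top cell of each library, 37 were higher and 273 lower of 5409, a criterion chosen after the values were seen.

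Of the 10 plasma cell genes 7 were at least 2-fold higher in Papain KO than in Papain WT members. Jchain had 14026 UMIs in 7 members of Papain KO against 7859 in 19 of Papain WT (log2 2.17). Its ratio was -1.71 once members with at least 10 Jchain UMIs, 5 in Papain KO and 7 in Papain WT, were left out. That removal used the gene's own UMIs, so -1.71 describes only the few UMIs left in the other members. Sdc1, the plasma cell proteoglycan CD138, had 85 UMIs in 6 members against 24 in 7 (3.16, 2.49 to 3.88), and the chaperone gene Txndc5 had a ratio of 1.59. Igha was the extreme at 7.93, but 15921 of its 15981 Papain KO UMIs lay in 1 cell, and without the top cell of each library it was 0.70. Ighm was 1.60 with those cells and 1.29 without them, and Igkc 1.74 and 1.59. Slc15a2, a peptide transporter, was higher by 3.66 (2.25 to 5.40) in Papain KO members, from 25 UMIs in 16 cells against 5 in 5, and by 3.65 in IgD-positive B cells as well. Gm13075 had 15 of its 20 UMIs in 1 cell.

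In the other direction S100a6 was lower in Papain KO than in Papain WT members, with a log2 ratio of -1.06 (-1.14 to -0.98), beside -0.94 in IgD-positive B cells. Zbtb32 stood at -1.11 in members and -1.06 in IgD-positive B cells, Cd80 at -1.13, Vim at -1.04, S100a4 at -1.36 and Plac8 at -0.90. With TMM factors S100a6 stood at -0.81, Zbtb32 at -0.87, Cd80 at -0.89 and Vim at -0.80, all short of 2-fold, and S100a4 at -1.11. Stmn1, a gene of dividing cells, stood at -1.95 and the IgG3 constant region Ighg3 at -3.38. The lowest genes by interval were those of myeloid cells: Chil3 (-5.44, with 1799 of 2519 Papain WT UMIs in 1 cell), Ccl4 (-6.32, -9.37 to -4.45, with 376 of 403 UMIs in 1 cell), C1qb (-5.95, -11.3 to -3.45), S100a9 (-4.28) and Lpl, which had no UMI in Papain KO members and was at least 14.0-fold lower against a floor of 3 UMIs per library. Chil3 was found in 100 Papain WT and 16 Papain KO members. Its ratio was -4.04 without the top cell of each library and -2.17 in IgD-positive B cells. Without the members rich in myeloid UMIs S100a9 stood at 0.11 and Ccl4 at 0.19. S100a9 is itself among the 13 myeloid genes used for that removal, and Ccl4 is not.

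**Figure D5:**
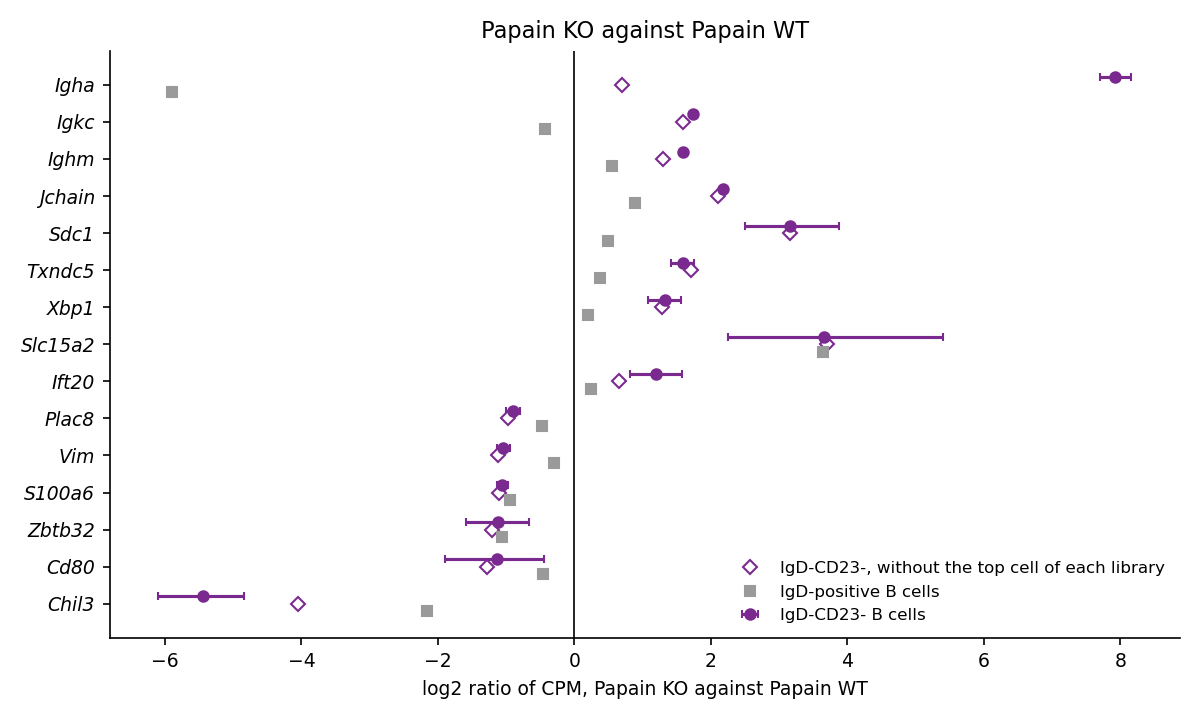
Log2 ratio of Papain KO to Papain WT members for named genes with exact 95% counting intervals (filled circles), the same ratio without the top cell of each library (open diamonds), and the ratio in IgD-positive B cells (squares). Igha moves from 7.93 to 0.70 and S100a6 stays below 0.

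In WT animals papain against DPBS gave 658 higher genes of 7674 (8.57%) and 176 lower (2.29%), of which 162 and 46 of 5018 passed the criterion on spread over cells. The interval lay wholly past 2-fold in only 35 of the higher and 28 of the lower genes. The highest by interval were myeloid genes: S100a9 (5.26, 3.70 to 7.54), S100a8 (5.07) and C1qb (5.05, 2.55 to 10.4), with Ccl17 and Mgl2 at 0 in DPBS WT members and at least 11.7-fold and 6.80-fold higher. In Papain WT the top cell, taken gene by gene, held 92 of 96 Mgl2, 115 of 165 Ccl17 and 109 of 156 C1qb UMIs. For S100a9 it was 242 of 540 and for S100a8 112 of 316, the rest lying in other members (25 and 23 with a UMI). Among the higher genes spread over cells, Lmo7, an adhesion-associated protein gene, was found in 50 Papain WT members against 1 of DPBS WT (4.93, and 2.84 in IgD-positive B cells). Bcl3, a nuclear regulator of NF-kappaB, was found in 84 against 5 (2.85). Tppp3 stood at 2.41, Lmna at 2.05, Ccnd2, a cyclin, at 1.32, Jak2 at 1.99 and Fcrl5 at 2.83. S100a6 was higher by 0.97 (0.86 to 1.07) in members and by 1.68 in IgD-positive B cells. Of 7 interferon-stimulated genes 4 were at least 2-fold lower in Papain WT: Ifit3 stood at -3.87 and Irf7 at -1.82. The 31 Ifit3 UMIs of DPBS WT lay in 5 members and the 78 Irf7 UMIs in 12, and Irf7 was -1.91 without the top cell of each library. Ifitm6 (-2.74), Fcgr1 (-2.89) and Cxcl10 (-2.57, with 31 of 43 DPBS WT UMIs in 1 cell) were the other lowest genes with Lyz2 (-1.85).

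In KO animals papain against DPBS gave 163 higher genes of 4375 (3.73%) and 271 lower (6.19%) about a median of -0.27. With TMM factors there were 324 and 82, and 251 and 116 without immunoglobulin genes in the totals, so the balance of directions depended on the scaling. In the main values the interval lay wholly past 2-fold for 36 higher and 48 lower genes. The highest were Igha (10.90, 9.36 to 13.2), Jchain (4.32), Igkc (3.09), Ighm (3.06) and Derl3 (at least 6.23-fold), genes of antibody secretion, of which Igha again rested on 1 cell and Ighm stood at -0.00 without members that had an other-lineage UMI. Txndc5 stood at 2.34, Creld2 at 2.67, Fam46c at 2.30 and Il10 at 2.26. C1qa (at 0 in Papain KO, at least 92.7-fold lower), C1qb (-7.48, -12.8 to -4.95), C1qc, Hmox1 (-5.36) and Ccl4 (-5.72, -8.82 to -3.77) were the lowest. In Hmox1 120 of 133 DPBS KO UMIs lay in 1 cell.

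After DPBS, KO against WT gave 114 higher genes of 3178 (3.59%) and 174 lower (5.48%), from 40 and 52 members. In 26 of the higher and 58 of the lower ones 1 cell held more than 50% of the UMIs, and the criterion on spread left 64 and 58 of 3050. The interval lay wholly past 2-fold for 22 higher and 35 lower genes. Macrophage genes were highest, and each rested on 1 DPBS KO cell: C1qb (6.58, 4.05 to 11.9) had all 64 UMIs in 1 cell, Cd63 (5.10, 2.48 to 10.5) 22 of 23, Adgre1 (4.04, 2.01 to 7.17) 19 of 22, and C1qa, at 0 in DPBS WT and at least 49.8-fold higher, all its 100. Of the 7 interferon-stimulated genes 6 were at least 2-fold lower in DPBS KO, with log2 ratios of -3.90 for Isg15 (-6.22 to -2.29, from 3 UMIs against 67), -2.12 for Irf7 and -1.44 for Bst2, and with Ifit3 at 0 in DPBS KO and at least 6.91-fold lower. In DPBS WT the Isg15 UMIs lay in 8 members, 32 of them in 1 cell, and the 31 Ifit3 UMIs in 5 members. The same DPBS WT members are the reference for the papain contrast in WT. Dividing-cell genes were lower too, Mki67 from 37 UMIs in 1 DPBS WT cell to 0, with Ube2c and Birc5, and Ly6c2 (-3.63) was among the lowest 5. Ighm stood at -1.61, but 5854 of its 7908 DPBS WT UMIs lay in 1 cell and it was -0.22 without the top cells. Igkc (10875 of 15195 UMIs in 1 cell) was -1.09 with and -0.18 without them, and Igha had 28 of its 31 UMIs in 1 cell. The log2 ratio of S100a6 was 0.02.

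Ift20 was present in members of all 4 libraries, at 77.6, 47.6, 52.9 and 121 CPM from 39, 16, 125 and 113 UMIs, beside 50, 35.2, 39.8 and 46.8 CPM in IgD-positive B cells. In Papain KO 48 of its 113 UMIs lay in 1 cell. The KO to WT log2 ratio in members after papain was 1.19, and 0.65 without the top cell of each library. Thinned to 2000 UMIs, Ift20 was found in 8%, 7.5%, 6.59% and 4.35% of members and in 9.02%, 7.35%, 7.62% and 7.93% of IgD-positive B cells. Tsg101 stood at 34.2 to 47.6 CPM in members against 45.8 to 51.1 CPM.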

How the data were processed

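Per the file headers and the submitters' processing notes, the authors deposited raw UMI counts per gene and cell barcode, written by software version 3.1.0 after Cell Ranger on mm10, for 31053 genes. The authors' cell calling, any doublet removal and their annotation release are not given in the sources used here. Barcodes with more than 200 genes and under 15% mitochondrial UMIs were kept, limits that the study's methods state for another of its experiments. The gene minimum left out 16 to 75 barcodes per library and the mitochondrial limit 145 to 378. For doublets, Scrublet scores (scanpy 1.11.5) were used, taking the top scores up to 0.8% per 1000 barcodes, and stayed in the main values.

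UMIs were summed per class and library and divided by all UMIs of that sum to give CPM. Ratios of CPM are on the log2 scale, with exact conditional binomial intervals, shares have Clopper-Pearson intervals, both at 95%, and both cover counting error only. The interval of a ratio of medians carries the members' median only. With 1 library per group there was no test. A gene was counted as past 2-fold between classes when the log2 ratio was at least 1, or at most -1, in each of 4 libraries with at least 10 UMIs in the higher class, and between libraries with at least 20 UMIs in the higher library. A sum of 0 was set to a floor of 3 UMIs, which gives a bound, and no ratio is given where the floor turned the direction. A gene entered a list median with at least 20 UMIs in members. T cells had at least 2 Cd3e UMIs and no Cd79a or Ms4a1 UMI. Thinning drew 2000 UMIs from each deeper cell and left out shallower ones (2 to 25 B cells per library).

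Named genes were those of 27 lists, the 12 highest and 8 lowest between classes by the ratio nearest 0, and the 5 highest and 5 lowest of each contrast between libraries by the interval bound nearest 0, without V segments. The members and lists were chosen with earlier results of these data known. Other genes past 2-fold that are named (S100a4, Crip1, Lgals1, Ahnak, Zfp318, Cd63, and those given as spread over cells) were chosen after their values were seen, as was the criterion on spread over cells. Positions are from GENCODE M21 on GRCm38, which held 30934 of the gene identifiers. Computation used Python 3.11.15, numpy 2.4.6, scipy 1.17.1 and pandas 2.3.3, figures matplotlib 3.10.9, and TMM factors edgeR 4.0.16 in R 4.3.3, which served for scaling alone. Code was tested on simulated data. With 3-fold changes planted in simulated counts, the 2-fold rule between libraries also called genes that had not been changed. They numbered 113 and 209 for KO against WT after DPBS and papain, and 394 and 198 for papain against DPBS in WT and KO. Alternatives were other gene, mitochondrial, Cd79a and UMI limits, doublet removal, depth windows, thinning, other scalings, means over cells, and removal of members with UMIs of other lineages. Some results are not reported here because they concern withheld items.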

Additional observations from a re-analysis of the deposited data

Results flagged for a closer look

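In each result below the sign of a contrast was opposite in its 2 settings. Each setting has 1 library, so the difference between them was not tested. All values are log2 ratios in IgD-CD23- B cells, and those of C1qa are bounds, since 1 of each pair of libraries had none of its UMIs.

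KO against WT, the share of cells was 0.14 after DPBS and -0.80 after papain, and the share of B cells 0.34 and -1.003. The counting intervals after DPBS, -0.50 to 0.76 of cells and -0.29 to 0.96 of B cells, held both signs. For immunoglobulin and secretion genes the ratios after DPBS and papain were -1.61 and 1.60 for Ighm, -1.09 and 1.74 for Igkc, -2.79 and 7.93 for Igha and -0.26 and 2.17 for Jchain. In DPBS WT the top cell, taken gene by gene, held 5854 of 7908 Ighm, 10875 of 15195 Igkc and 28 of 31 Igha UMIs. Without the top cell of each library Ighm was -0.22 and Igkc -0.18 after DPBS. For Jchain 1 cell held 450 of 453 UMIs in DPBS WT and 252 of 253 in DPBS KO. In Papain KO 1 cell held 15921 of 15981 Igha UMIs. For myeloid genes the ratios were 5.64 and -3.45 for C1qa, 6.58 and -5.95 for C1qb, 3.52 and -4.28 for S100a9 and 0.21 and -0.66 for Lyz2.

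Papain against DPBS, the ratios in WT and KO were -0.14 and 3.06 for Ighm (1.30 and 2.81 without the top cells) and -1.46 and 1.47 for Sdc1. Of the 14 Sdc1 UMIs in DPBS WT 11 lay in 1 cell, and DPBS KO had 11 UMIs in 4 members. For myeloid genes the ratios were 2.56 and -6.53 for C1qa, 5.05 and -7.48 for C1qb, 2.62 and -1.27 for Chil3 and 5.26 and -2.54 for S100a9. In DPBS KO all UMIs of C1qa, and all of C1qb, lay in 1 cell for each gene.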

How the results depend on the processing

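No paired analysis was possible because each group holds 1 library, which carries no number that pairs it with another. For the same reason no replicate could be left out. Of the alternative values for shares, depths and gene counts, 160 stayed within the counting interval or within 1.5 times the count and 50 did not, and of those for single genes 401 stayed, 125 moved and 5 turned direction.

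Without members that had an other-lineage UMI, the log2 ratio of the share of cells was -0.024 (KO against WT after papain) and 1.42 (papain against DPBS in KO), the share of B cells -0.23 and 1.05, and the switched share in DPBS WT 0%. Thinned to 2000 UMIs before Ighd and Fcer2a were read, the B cell ratios were -0.29 for KO against WT after papain and 1.10 for papain against DPBS in WT.

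Between classes, 3 genes were higher and 3 lower in all libraries at 3000 to 8000 UMIs, and 5 and 131 over 8000 UMIs, a window chosen after the data were seen. With means over cells 16 were lower, without a UMI minimum 128 were higher, and without myeloid-rich barcodes 46 were lower.

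Between libraries, a minimum of 100 UMIs gave 8 higher and 21 lower genes for KO against WT after DPBS, 28 and 104 after papain, 75 and 26 for papain against DPBS in WT and 38 and 26 in KO. No minimum gave 1260 and 999, 777 and 1401, 1126 lower, and 500 and 2119. Without other-lineage members there were 19 and 49, 38 and 208, 340 and 116, and 139 lower. For KO against WT after papain TMM gave 136 and 538, totals without immunoglobulin genes 127 higher and means over cells 164 higher. For papain against DPBS in KO these gave 324 and 82, 251 and 116, and 175 lower, and in WT means over cells gave 295 lower. The next removals were chosen after the data were seen. Without myeloid-rich members KO against WT after DPBS gave 45 and 77, and without Jchain-rich members 102 lower, and 107 lower for papain against DPBS in KO.

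After papain, S100a9 in KO against WT turned to 0.17 without Scrublet doublets and 0.11 without myeloid-rich members, Ccl4 to 0.19 without the latter, and Jchain to -1.71 without Jchain-rich members. The myeloid-rich members were chosen in part by S100a9 UMIs and the Jchain-rich ones by Jchain UMIs, so those removals act on the compared genes themselves. Ighm for papain against DPBS in KO was -0.0023 without other-lineage members. The cause was not tested in any of these. With 40 to 168 members per library, a gene seen in few of them has a wide interval, and a missing Ighd UMI does not show that a shallow cell lacks IgD.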
